A study of Mus musculus with 18 samples.

Results

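Heterozygous and homozygous loss of Fabp4 were compared together with wild type in RNA from sorted mouse bone marrow, using 8 of the 18 samples of the study. Fabp4 encodes a fatty acid binding protein, and the series describes its role in leukemia stem cells and hematopoietic stem cells. The 8 libraries were 3 wild-type (WT), 2 heterozygous knockout (HET) and 3 homozygous knockout (KO) libraries, and the 5 HET and KO libraries are called the loss libraries. The replicate numbers of the HET libraries are 1 and 3, and HET replicate 2 was not analysed here. The labels say that the cells were sorted from bone marrow, with no population, sort marker, strain, age, sex or treatment named, and the same holds for every group. Per the design text there were 3 mice for each genotype, but nothing ties a library to 1 mouse, and every p-value here reflects only how far these libraries differed from each other. The other 9 samples, labelled as sorted from vitro bone marrow, are called the in vitro set and appear only side by side.

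The values were FPKM, fragment numbers that the authors scaled for transcript length and library depth. Of 13195 genes in the marrow table, 1892 were above 0 in all 8 libraries and could be tested, on the scale log2(FPKM + 1). HET replicate 1 listed the fewest genes above 0 (3633), so a gene of low level was tested only where that library listed it. Differences are given on that scale as the mean of the loss libraries minus the mean of WT, with the standard error (SE). A gene is called separated where every loss library lay above, or every loss library lay below, all 3 WT libraries.

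The marrow makes neutrophils in a fixed order. Promyelocytes fill primary granules with serine proteases such as elastase, myelocytes then fill secondary granules with antimicrobial proteins such as cathelicidin, and maturing cells pack the cytosol with the calcium-binding pair S100a8 and S100a9. Immature cells that still divide use many ribosomes, and antigen-presenting cells carry MHC class II molecules, for which Cd74 is the chaperone. Fatty acid binding proteins carry fatty acids within cells, and in adipocytes and macrophages Fabp4 is known to connect lipid supply with nuclear receptors and inflammation.

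No gene passed the threshold of 0.05 on the adjusted p in the loss libraries against WT (limma, 0 of 1892 genes, 0.0% called, smallest adjusted p = 0.234). At an unadjusted p under 0.05 there were 128 genes, of which 55 were higher (2.91%) and 73 lower (3.86%) in the loss libraries. The groups were separated for 110 genes (5.81%), with 37 higher (1.96%) and 73 lower (3.86%). What share of genes would be separated without an effect of genotype was not tested, so these counts are descriptive only. The median difference over all 1892 genes was -0.17. The separated genes included, with higher values in loss libraries, some neutrophil genes such as Camp and S100a8, MHC class II and Camk1. With lower values they included ribosomal proteins, metallothionein and ferritin. The 95% interval of a difference reached a median of 1.65 log2 units to each side, and for only 96 genes did it lie wholly within 1 log2 unit of 0, so that for most genes these libraries did not bound the difference to that size.

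The libraries differed in depth and in content before any comparison of genes. The estimated depth of the WT libraries was 21.8 to 31.4 M fragments, the HET libraries had 3.95 and 11.6 M, and the KO libraries 16.3 to 35.6 M. WT libraries listed 8194 to 8526 genes above 0, HET libraries 3633 and 5209, and KO libraries 6560 to 8519 (exact two-sided permutation test of loss against WT, p = 0.25, adjusted p = 0.25 over 2 such measures, smallest possible p = 0.0179). WT replicate 3 stood apart from the other WT libraries: S100a8 made up 0.143% of its summed FPKM against 5.16% and 4.52% in WT replicates 1 and 2, and 12.6% to 19.0% in the loss libraries. Mitochondrial transcripts made up 3.60, 2.75 and 3.59% of summed FPKM in WT, 2.86 and 2.76% in HET, and 1.004, 1.65 and 0.993% in KO (exact permutation test of loss against WT, p = 0.0714, adjusted p = 0.143). The X inactivation RNA Xist was at 57.2, 37.6 and 46 FPKM in WT, 31.4 and 65.1 in HET and 5.01, 13.8 and 9.81 in KO. The Y-linked gene Ddx3y was at 3.90 FPKM in WT replicate 3, 4.72 and 3.14 in KO replicates 2 and 3 and 0 in the others, and Eif2s3y, also Y-linked, was at 5.85, 4.75 and 1.104 in KO replicates 1 to 3 and 0 elsewhere. Genotype, depth of the HET libraries and the sex-linked transcripts of the KO libraries cannot be told apart here.

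**Figure D1:**
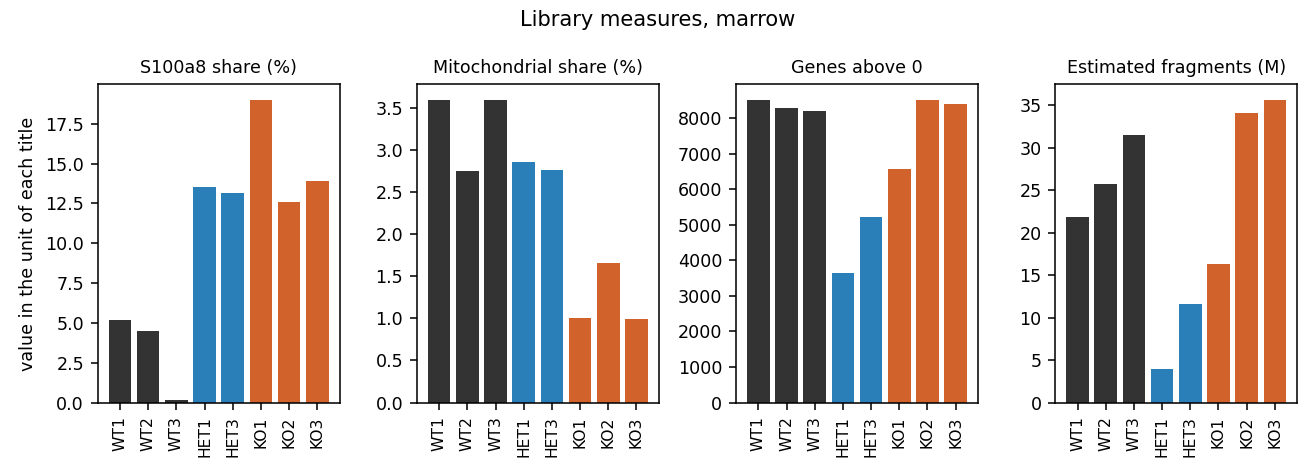
Bars give 4 measures for each of the 8 marrow libraries, coloured by genotype (WT dark, HET blue, KO orange): the percent of summed FPKM taken by S100a8, the percent taken by mitochondrial transcripts, the number of genes listed above 0, and the estimated depth in M fragments. S100a8 takes 12.6% to 19.0% in the 5 loss libraries and at most 5.16% in WT, while HET replicate 1 is the shallowest library at 3.95 M.

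Fabp4 itself was not analysed here in the marrow libraries, so the genotype labels could not be checked against it in this set. In the in vitro set Fabp4 was at 0, 0.0326 and 0.330 FPKM in WT, 0, 0.0676 and 0 in HET and 0 in every KO library, which is near 0 in all genotypes. Fabp5, the epidermal fatty acid binding protein that macrophages also express, was at 0, 0.0406 and 37.2 FPKM in marrow WT, 0 in both HET and 0, 7.41 and 26.4 in KO. Fabp1 was listed only in WT replicate 2, at 53.5 FPKM, and Fabp12 only in KO replicate 1, at 19.5 FPKM. None of the 3 was above 0 in all 8 libraries, so none was tested.

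The list of neutrophil granule and chemotaxis genes had the largest median difference of the lists with at least 3 tested members. All lists were chosen with earlier results of these data known, so neither this rank nor the counts per list are independent support. Of 26 names, 25 were in the table and 12 could be tested, and 6 of these 12 were separated with higher values in loss libraries (Camp, Stfa1, S100a9, Ngp, S100a8 and Fcnb) and 0 with lower values, beside 1.96% and 3.86% of all tested genes. The median difference of the list was 2.29 (1.98 in HET and 2.20 in KO against the shared WT libraries), and 11 of 12 members were positive, beside a median of -0.17 over all genes. No member passed the adjusted threshold. Fewer cells of a type and less RNA per cell cannot be told apart in bulk RNA.

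Camp, on chr9:109847377-109849456 (minus strand, GRCm38.p6), encodes cathelicidin, an antimicrobial peptide of secondary granules. It was at 5809, 5084 and 150.0 FPKM in WT replicates 1 to 3, 19004 and 23781 in HET replicates 1 and 3, and 30328, 19149 and 30416 in KO replicates 1 to 3. The loss libraries lay above all WT libraries, with WT replicate 3 far below the other WT libraries. The difference was 3.87 (SE 0.97, limma adjusted p = 0.484), with a 95% interval of 1.73 to 6.005. Without WT replicate 3 it was 2.14, and the gene then passed the threshold (adjusted p = 0.00993). WT replicate 3 was singled out above by its low share of S100a8, a gene of the same list. Leaving out this library also narrows the WT spread of such genes, so a pass without it is not independent support.

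S100a8, on chr3:90669071-90670034, encodes a subunit of calprotectin, the most abundant cytosolic protein of neutrophils. Its values were 33972, 28261 and 837 FPKM in WT replicates 1 to 3, 94378 and 90396 in HET replicates 1 and 3, and 138698, 83026 and 100020.3 in KO replicates 1 to 3. It was the most abundant of the list in all libraries but WT replicate 3, where Lyz2 and Chil3 were higher. The difference was 3.42 (SE 1.01, limma adjusted p = 0.484), and without WT replicate 3 it was 1.69 (adjusted p = 0.012). Its partner S100a9 was at 3978, 2698 and 91.6 FPKM in WT, 6939 and 6762 in HET and 13876, 11189 and 11970.0 in KO, a difference of 3.29 (SE 0.98, limma adjusted p = 0.484). Without WT replicate 3 the difference of S100a9 was 1.57 and did not pass the threshold (adjusted p = 0.243).

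Ngp, neutrophilic granule protein, was at 3962, 2236 and 83 FPKM in WT, 4464 and 5239 in HET and 22434, 15563 and 20514 in KO. The HET libraries lay just above WT replicate 1, and the KO libraries lay well above both, with differences from WT of 2.42 in HET and 4.41 in KO. Stfa1, a stefin that inhibits cysteine proteases, was at 5823, 2700.2 and 174 FPKM in WT, 13865 and 13258 in HET and 17906, 7459 and 9162 in KO, a difference of 3.07 (SE 0.89, limma adjusted p = 0.484). Fcnb, ficolin B of myeloid granules, was at 290.2, 288 and 4.05 FPKM in WT, 700.3 and 817 in HET and 1260.3, 824 and 1031 in KO, a difference of 3.59 (SE 1.11, limma adjusted p = 0.493). Without WT replicate 3 the differences of Ngp, Stfa1 and Fcnb were 1.897, 1.57 and 1.65, with adjusted p of 0.636, 0.464 and 0.22. Cstdc5, a neighbour and close copy of Stfa1 that no list held and that was chosen after its values were seen, was at 2437, 1757 and 60.7 FPKM in WT, 7015 and 7441 in HET and 13207, 4246 and 6014 in KO. Reads shared between such copies could be assigned to either, so the values of Stfa1 and Cstdc5 are uncertain one by one.

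With WT replicate 3 left out, the same 12 members had a median of 1.21 in place of 2.29, 6 were separated higher and 0 lower, and all genes had 4.44% separated higher and 7.82% lower. The summed FPKM of the list was 14460 in WT replicate 3, 53930 and 72680 in the other WT libraries, and 157000 to 247100 in the loss libraries. The remaining tested members were not separated. Chil3 and Pglyrp1, a chitinase-like protein and a peptidoglycan recognition protein, had differences of 1.504 (SE 0.58) and 1.398 (SE 0.60), with WT replicate 1 within the range of the loss libraries. Without WT replicate 3 their differences were 0.86 and 0.53. Lyz2, lysozyme of all myeloid cells, was at 7857 to 11386 FPKM in WT and 8293 to 16165 in loss libraries, a difference of 0.34 (SE 0.24) that was negative under quantile normalization.

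Some members of the list were outside the test because a library was listed at 0, and the following ones were chosen after their values were seen. Ltf, lactoferrin of secondary granules, was at 0.0335, 0.0706 and 0 FPKM in WT, 0 and 0 in HET and 107, 146 and 191 in KO. Lcn2, which binds bacterial siderophores, was at 450.0, 70.6 and 0 in WT, 208 and 31.1 in HET and 839, 767 and 610.3 in KO. Cd177, a neutrophil surface protein, was at 46.9, 0.0705 and 42.4 in WT, 0 and 7.19 in HET and 232, 228 and 302 in KO. For all 3 the KO libraries were higher than every WT and HET library, and the HET libraries, which are the shallowest, lay within or below the WT range. Ly6g, a marker of mature neutrophils, was listed only in KO replicate 3. Other members overlapped between KO and WT. Ifitm6, an interferon-induced membrane protein family member, was at 739.6, 402 and 221 in WT, 0 and 452 in HET and 308, 478 and 405 in KO. Wfdc21 was at 334, 0.972 and 0 in WT, 0 and 0 in HET and 374, 134 and 231 in KO. Retnlg was above 0 only in WT replicate 1 and KO replicate 3, at 68.6 and 40.8 FPKM, with the WT library higher. Cxcr2, a receptor for neutrophil chemokines, was at 2.97, 0 and 5.99 in WT, 0 and 0 in HET and 3.11, 0 and 0 in KO. Mmp8, Mmp9, Il1b, Stfa2 and Stfa3 overlapped between KO and WT as well.

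**Figure D2:**
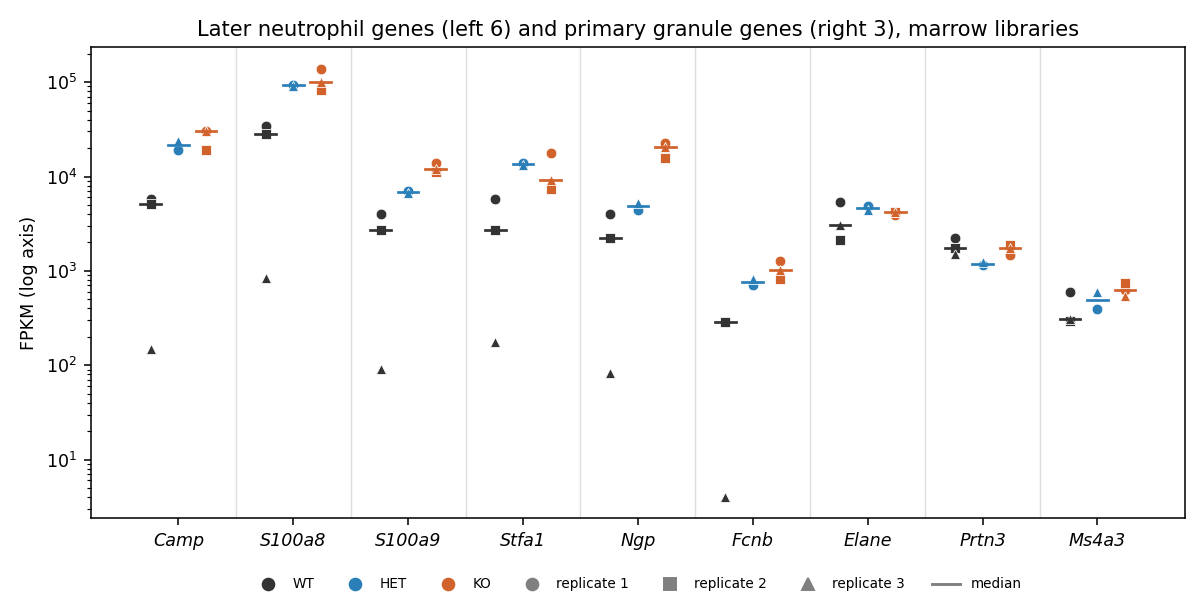
Points give FPKM on a log axis for 9 neutrophil genes in the 8 marrow libraries (WT dark, HET blue, KO orange; the point's shape gives the replicate number and short bars the median of each genotype). For the 6 genes on the left every loss library lies above every WT library and WT replicate 3 (triangle) is the lowest, while Elane, Prtn3 and Ms4a3 on the right overlap between the groups.

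Of 10 tested primary granule genes, 0 were separated in either direction, beside 1.96% higher and 3.86% lower over all tested genes. At these shares a count of 0 among 10 genes says little about the list. Of the 10, 5 were positive and 5 negative, and the median difference was 0.03. Cst7 and Prss57 were listed at 0 in a library and were not tested. Cst7 was at 280, 0.0785 and 224 FPKM in WT, 0 and 0 in HET and 0.062, 0.776 and 0 in KO. Prss57 was at 66.2, 11.2 and 6.84 FPKM in WT, 17.2 and 0 in HET and 17.5, 44.0 and 69.6 in KO. Elane, neutrophil elastase, was at 5347, 2122 and 3049 FPKM in WT replicates 1 to 3, 4817 and 4451 in HET replicates 1 and 3, and 3923, 4234 and 4164 in KO replicates 1 to 3, a difference of 0.402 (SE 0.28). WT replicate 3, the lowest library for cathelicidin, lay between the other WT libraries for Elane. Prtn3, proteinase 3, was at 1503 to 2229.9 FPKM in WT and 1164 to 1863 in loss libraries (difference -0.296, SE 0.26), and Ms4a3, a marker of committed granulocyte and monocyte progenitors, was at 295 to 604 FPKM in WT and 390.3 to 742 in loss libraries (difference 0.57, SE 0.36).

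The promoter windows of separated genes are shown because these genes carry the neutrophil and MHC class II results; they come from RefSeq (GRCm38.p6) and hold the 250 bases before the gene's start, written 5′ to 3′ on the gene's strand. Capitals mark matches, on either strand, to CCAAT (the CCAAT box, bound by the NF-Y factor; ATTGG on the other strand) or to TTGCNNAA (a core of sites bound by C/EBP factors).
Ngp, chr9:110419558-110419807, plus strand: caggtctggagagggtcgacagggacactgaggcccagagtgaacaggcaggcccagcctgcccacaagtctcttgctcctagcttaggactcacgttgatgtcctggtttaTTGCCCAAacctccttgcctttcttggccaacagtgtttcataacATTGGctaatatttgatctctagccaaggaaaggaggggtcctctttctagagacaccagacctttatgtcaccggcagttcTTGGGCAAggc
Stfa1, chr16:36276898-36277147, plus strand: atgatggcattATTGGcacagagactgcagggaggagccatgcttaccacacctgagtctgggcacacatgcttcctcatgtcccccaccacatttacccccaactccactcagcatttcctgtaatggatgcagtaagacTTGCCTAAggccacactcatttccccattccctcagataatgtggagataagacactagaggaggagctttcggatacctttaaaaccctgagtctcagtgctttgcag
Cstdc5, chr16:36367571-36367820, minus strand: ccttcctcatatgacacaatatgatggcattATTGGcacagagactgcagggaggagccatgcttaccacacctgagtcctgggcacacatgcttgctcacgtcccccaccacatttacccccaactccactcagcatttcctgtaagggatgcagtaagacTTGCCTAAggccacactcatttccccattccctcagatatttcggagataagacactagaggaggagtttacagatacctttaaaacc
H2-Aa, chr17:34287824-34288073, minus strand: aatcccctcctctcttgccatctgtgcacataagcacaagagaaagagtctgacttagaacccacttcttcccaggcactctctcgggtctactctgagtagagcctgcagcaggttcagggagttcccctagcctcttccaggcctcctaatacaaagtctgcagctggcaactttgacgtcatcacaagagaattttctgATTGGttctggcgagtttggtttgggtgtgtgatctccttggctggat
Stfa1 and Cstdc5 had the same base at 220 of 230 aligned positions (95.7%), with 1 gap. Of 8 windows searched (Camp, Stfa1, S100a9, Ngp, S100a8, Fcnb, Cstdc5 and H2-Aa), 5 held CCAAT and 5 held TTGCNNAA. The windows of Camp and S100a8 held 0 matches to either, while the windows printed above all held a match. Stfa1 and Cstdc5, being close copies, are counted separately in both totals, so these totals are not independent counts. Over 32851 windows of 27025 genes in the RefSeq table, 33.8% held CCAAT and 9.56% held TTGCNNAA. A match describes letters only, and no binding was measured here.

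Of the MHC class II genes, H2-Aa, H2-Ab1 and Cd74 lay higher in every loss library than in WT. H2-Aa, on chr17:34282744-34287823, encodes the alpha chain of the I-A molecule and was at 56.6, 142 and 63 FPKM in WT replicates 1 to 3, 1387 and 291 in HET replicates 1 and 3, and 382, 861 and 864 in KO replicates 1 to 3. The highest WT library lay below the lowest loss library, HET replicate 3. The difference was 3.01 (SE 0.56, limma adjusted p = 0.234), almost the same size in HET (2.98) and KO (3.03), and 2.84 without WT replicate 3. Its partner chain H2-Ab1 was at 284, 287 and 188 FPKM in WT, 911 and 1439 in HET and 329, 1735 and 654 in KO, a difference of 1.798 (SE 0.51, limma adjusted p = 0.484), with KO replicate 1 only just above WT. Cd74, the invariant chain that holds class II molecules until they meet peptide, was at 455, 827 and 547 FPKM in WT, 1186 and 1926 in HET and 1033, 2267 and 2437 in KO, a difference of 1.499 (SE 0.36, limma adjusted p = 0.484). These 3 genes were the only separated ones among 9 tested genes of antigen presentation (median -0.03), with 0 separated lower, beside 1.96% higher and 3.86% lower over all tested genes, and the class I genes in the list were not separated. H2-Eb1 and H2-DMb1, further class II genes chosen after their values were seen, were listed at 0 in HET replicate 1 and so were not tested. H2-Eb1 was at 109, 84.3 and 75.3 FPKM in WT, 0 and 115 in HET and 131, 376 and 163 in KO. H2-DMb1, a chain of the molecule that loads peptide, was at 67.6, 206 and 97.8 FPKM in WT, 0 and 20.3 in HET and 109, 164 and 202 in KO. For H2-DMb1 both HET libraries lay below all WT libraries and the KO libraries lay within the WT range. In the in vitro set the differences of H2-Aa, H2-Ab1 and Cd74 were 0.03, -0.01 and -0.01.

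Markers of dendritic cells overlap with this list. Of 6 tested members, H2-Aa, H2-Ab1 and Cd74 were separated higher and Tcf4, a factor of plasmacytoid cells, lower (difference -0.82; this gene was chosen after its values were seen), beside 1.96% higher and 3.86% lower over all tested genes. Cd209a, the C-type lectin of monocyte-derived dendritic cells, was at 0.031, 1.04 and 118 FPKM in WT replicates 1 to 3, 239 and 144 in HET replicates 1 and 3, and 161, 115 and 142 in KO replicates 1 to 3. WT replicates 1 and 2 were near 0 and WT replicate 3 lay within the loss range, so the groups overlapped. Its difference was 4.63 (SE 1.30, limma adjusted p = 0.484), and without WT replicate 3 it was 6.75 and passed the threshold (adjusted p = 0.00972). Irf8, a factor needed for monocytes and dendritic cells, was at 109 to 220.0 FPKM in WT and 60.3 to 122 in loss libraries (difference -0.71, SE 0.46). The summed FPKM of the 14 list members in the table was 1089 to 1673 in WT and 2172 to 5539 in loss libraries. H2-Aa, H2-Ab1 and Cd74 made up most of this sum in every library, so it repeats their values. The defining markers Itgax, Siglech and Xcr1 were at or near 0 in nearly every library, with 0, 0 and 9.96 FPKM of Itgax in KO.

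Among single genes, Camk1 had the smallest p. Camk1, on chr6:113334124-113343922, encodes calcium/calmodulin-dependent kinase I and was at 5.32, 4.26 and 21.9 FPKM in WT replicates 1 to 3, 325 and 99 in HET replicates 1 and 3, and 146, 80.8 and 205 in KO replicates 1 to 3. Even the highest WT library, replicate 3, lay well below the lowest loss library, KO replicate 2. The difference was 4.05 (SE 0.73, limma adjusted p = 0.234), 4.305 in HET and 3.89 in KO, and 4.72 without WT replicate 3, where it passed the threshold (adjusted p = 0.0361). In the in vitro set, where 9.24% of 14777 tested genes were separated in either direction, Camk1 was also separated higher, at 0.43 (limma adjusted p = 0.0559).

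Penk, which encodes the precursor of enkephalin peptides, was at 106, 267 and 60.5 FPKM in WT, 1271 and 854 in HET and 585, 395 and 734 in KO, a difference of 2.56 (SE 0.52, limma adjusted p = 0.275). Lta4h, the enzyme that makes the neutrophil attractant leukotriene B4, was at 539, 412 and 184 in WT, 1681 and 1302 in HET and 928, 891 and 1004 in KO, a difference of 1.71 (SE 0.39, limma adjusted p = 0.466), with the HET libraries the highest. Hmgn2, a nucleosome-binding protein, was at 1239 to 2352 FPKM in WT and 2836 to 4666 in loss libraries (difference 1.04, SE 0.27, limma adjusted p = 0.484). Atp6ap2, an accessory subunit of the proton pump of lysosomes, was at 11.5 to 63.5 FPKM in WT and 79.2 to 267 in loss libraries (difference 2.58, SE 0.69, limma adjusted p = 0.484). Il2rg, the common gamma chain of cytokine receptors, was chosen after its values were seen, as 1 of the 5 genes called without WT replicate 3. It was at 0.0552, 0.0233 and 46.6 FPKM in WT, 45.3 and 126 in HET and 229, 92.3 and 74.9 in KO, so that WT replicate 3 again lay within the loss range and the groups overlapped. Its difference was 4.74 (SE 1.25, limma adjusted p = 0.484), and without WT replicate 3 it was 6.58 (adjusted p = 0.0166). The 5 genes called without WT replicate 3, all higher in loss libraries, were Camk1, Camp, Cd209a, Il2rg and S100a8 (0.264% of 1892 genes). These calls rest on WT replicates 1 and 2 alone. For Cd209a and Il2rg, the library left out was the WT library within the loss range, so leaving it out removed the overlap.

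**Figure D3:**
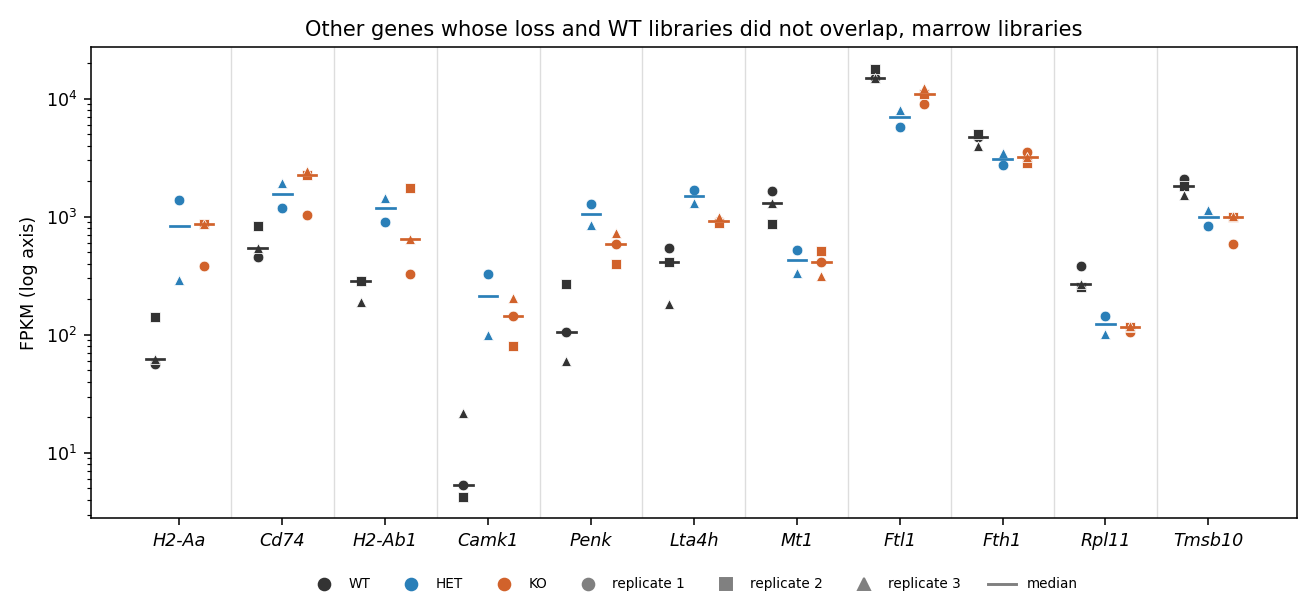
Points give FPKM on a log axis for 11 separated genes in the 8 marrow libraries, drawn as in the plot of neutrophil genes. H2-Aa, Cd74, H2-Ab1, Camk1, Penk and Lta4h lie higher in every HET and KO library than in WT, and Mt1, Ftl1, Fth1, Rpl11 and Tmsb10 lie lower.

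Ribosomal protein genes were lower as a list. All 79 tested genes of both ribosomal subunits had a negative difference, from -1.97 to -0.04 with a median of -0.77, beside -0.17 over all genes. Of these, 25 were separated lower and 0 higher (14 of 46 of the large and 11 of 33 of the small subunit), beside 3.86% of all tested genes, and 26 had an unadjusted p under 0.05. None passed the adjusted threshold. Against the shared WT libraries the median was -0.63 in HET, where 68 of 79 were negative, and -0.78 in KO, where 77 of 79 were negative. Many of these genes have processed copies elsewhere in the genome, and how the authors' counting treated shared reads is not given in the sources used here.

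Rpl11, a large subunit protein on chr4:136049354-136053393 that also binds the p53 regulator Mdm2, was at 379, 256 and 268 FPKM in WT replicates 1 to 3, 145 and 103 in HET replicates 1 and 3, and 106, 116 and 119.5 in KO replicates 1 to 3. The lowest WT library was still above the highest loss library, HET replicate 1. The difference was -1.33 (SE 0.37, limma adjusted p = 0.484). Rps23, which lies at the decoding centre, was at 1649, 1564 and 1626 FPKM in WT, 507 and 806 in HET and 1060.2, 1018 and 833 in KO, with the 3 WT libraries close together, a difference of -0.98 (SE 0.29, limma adjusted p = 0.484). Rpsa, the laminin-receptor protein of the small subunit, was at 542 to 686 FPKM in WT and 208 to 372 in loss libraries (difference -1.02, SE 0.32). Other separated members with small p were Rps26 (difference -0.94, SE 0.29), Rps10 (difference -1.01, SE 0.35), Rpl36 (difference -1.05, SE 0.33), Rpl14 (difference -1.196, SE 0.38) and Rpl41 (difference -1.09, SE 0.36).

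FPKM are relative to the library's total, so the values of other genes depend on the share that S100a8 and similar genes take. The summed FPKM of the 47 large subunit genes was 29240 to 41110 in WT and 16930 to 27640 in loss libraries, and that of the 33 small subunit genes 25450 to 34050 and 17360 to 21460. Rescaled to equal library sums that leave out the neutrophil list, an alternative added after seeing the data, the 79 genes had a median of -0.61 beside -0.03 over all genes, with 75 of 79 negative. Quantile normalization gave -0.63 beside -0.04, median-ratio scaling -0.64 beside -0.05, and rescaling to TPM -0.94 beside -0.34. Without WT replicate 3, 33 of the 79 were separated lower and 0 higher, beside 7.82% and 4.44% of all genes. Without both HET libraries 48 were lower and 0 higher, beside 12.7% and 4.76%, and without all KO libraries 37 were lower and 3 higher, beside 13.6% and 15.3%. In the in vitro set the median of the same genes was -0.13.

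Most translation factors were negative too. Of 23 tested, 18 were negative and 5 positive with a median of -0.67, beside -0.17 over all genes, and 5 were separated lower and 0 higher, beside 1.96% higher and 3.86% lower over all tested genes. Eef1a1, which delivers aminoacyl-tRNA, was at 1448 to 1672 FPKM in WT and 774 to 1396 in loss libraries (difference -0.67, SE 0.27). Tpt1, the translationally controlled tumor protein, was at 458 to 1118 FPKM in WT and 256 to 404 in loss libraries (difference -0.97, SE 0.38). Eif6, which keeps the large subunit free until it is mature, was at 141, 202 and 137 FPKM in WT, 1.18 and 86.1 in HET and 22.6, 32.1 and 85.4 in KO (difference -2.59, SE 1.11). Outside the translation lists, Gas5, a noncoding RNA that hosts small nucleolar RNAs, was at 1117 to 1524 FPKM in WT and 309 to 1012 in loss libraries (difference -0.95, SE 0.40). Ribosome biogenesis and Myc genes were negative for 6 of 7 tested members with 0 separated.

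**Figure D4:**
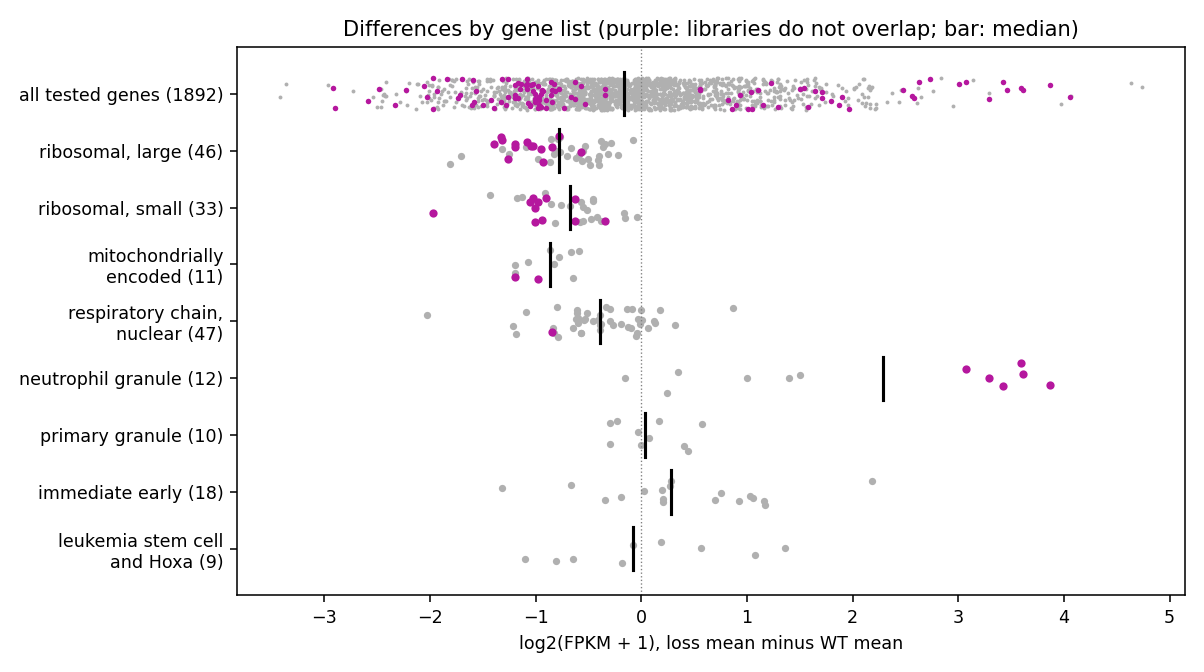
Each point is a tested gene, placed by its difference in log2(FPKM + 1) between the loss and WT means; purple points are genes whose loss and WT libraries do not overlap, black bars are medians, and numbers in brackets count the tested genes. Ribosomal protein genes all lie left of 0 with medians of -0.78 (large) and -0.67 (small), the 6 purple neutrophil genes lie above 3, and primary granule genes centre at 0.03.

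Metallothionein and ferritin genes lay lower in every loss library than in WT. Mt1, on chr8:94178883-94180327, encodes the zinc- and copper-binding metallothionein 1 and was at 1658, 866 and 1319 FPKM in WT replicates 1 to 3, 523 and 333 in HET replicates 1 and 3, and 417, 511 and 317 in KO replicates 1 to 3. The highest loss library, HET replicate 1, lay below the lowest WT library, replicate 2. The difference was -1.59 (SE 0.33, limma adjusted p = 0.275), the smallest p of any gene that was lower, and it was -1.57 in HET and -1.601 in KO. In the in vitro set Mt1 was separated lower too, at -0.56 (adjusted p = 0.0713). Mt2, its neighbour and close relative, was listed at 0 in a library and was not tested, with 411, 282 and 464 FPKM in WT, 67.7 and 0 in HET and 207, 3.55 and 0.502 in KO, and it was chosen after its values were seen. The iron stores Ftl1 and Fth1, the light and heavy chains of ferritin, were at 14869 to 17926 FPKM in WT and 5782 to 12387 in loss libraries (difference -0.82, SE 0.25) and at 3975 to 5063 FPKM in WT and 2742 to 3511 in loss libraries (difference -0.53, SE 0.20). Of 4 tested members of this list, 3 were separated lower and 0 higher, beside 1.96% higher and 3.86% lower over all tested genes.

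Further genes with low p that were lower belonged to several processes. Atox1, the copper chaperone, was at 531 to 948 FPKM in WT and 276 to 416 in loss libraries (difference -1.08, SE 0.32, limma adjusted p = 0.484). Nasp, a histone chaperone, was at 24.2, 8.15 and 27.8 FPKM in WT, 0.504 and 0.392 in HET and 2.21, 4.79 and 1.65 in KO (difference -2.896, SE 0.74, limma adjusted p = 0.484). Tmsb10, a small protein that binds actin monomers, was at 1519.6 to 2079.6 FPKM in WT and 592 to 1147 in loss libraries (difference -1.004, SE 0.29, limma adjusted p = 0.484). Sh3bgrl3, a small thioredoxin-like protein, was at 4072, 4130.2 and 4100.0 in WT, the 3 values almost equal, 2157 and 2341 in HET and 2087, 3106 and 2746 in KO (difference -0.74, SE 0.22, limma adjusted p = 0.484). Ssr4, part of the translocon-associated complex, and Per1, a circadian repressor, had differences of -1.72 (SE 0.50) and -2.48 (SE 0.75). Of the antioxidant list, 2 of 12 tested members were separated lower, Prdx1 at -1.15 (SE 0.45) and Sod1 at -1.29 (SE 0.58), and 0 higher, beside 1.96% higher and 3.86% lower over all tested genes. F13a1, coagulation factor XIII of monocytes, was the 1 separated member, on the lower side, of 12 tested monocyte and macrophage genes, at 50 to 157 FPKM in WT and 5.13 to 46.9 in loss libraries (difference -2.03, SE 0.85).

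Mitochondrially encoded transcripts had a lower median in KO than in HET, and no difference between these genotypes was called. All 11 tested genes were negative in the pooled comparison (median -0.87), and 2 were separated lower and 0 higher, beside 1.96% higher and 3.86% lower over all tested genes. The median was -0.21 in HET and -1.31 in KO. A list of nuclear retained and long noncoding RNAs, kept as a sign of RNA quality and holding Xist and Gas5, had nearly the same medians over 5 tested members: -0.95 in the pooled comparison, -0.22 in HET and -1.25 in KO, with 4 of 5 negative, 1 separated lower and 0 higher. Its members did not share this pattern: Xist had differences of -0.03 in HET and -2.26 in KO, and Gas5 of -1.59 and -0.53. Xist is also among the sex-linked transcripts given above. The summed FPKM of this list ran from 3273 to 5737 over the WT libraries and from 2313 to 4102 over the KO libraries, while HET replicates 1 and 3 had 5934 and 5860, and its part in the mitochondrial values was not tested. CYTB, cytochrome b of complex III, was at 7233, 6858 and 9318 FPKM in WT replicates 1 to 3, 7146 and 6016 in HET replicates 1 and 3, and 3204, 4029 and 2446 in KO replicates 1 to 3, so that the HET libraries lay near WT and the KO libraries below both. ND4, a subunit of complex I, was at 1323, 1117 and 768 FPKM in WT, 658 and 1126 in HET and 155, 618 and 272 in KO. ND5, of the same complex, was at 924, 700.3 and 964 FPKM in WT, 906 and 598 in HET and 100.4, 347 and 376 in KO. COX1, the catalytic subunit of complex IV, had differences of -0.01 in HET and -1.07 in KO. No gene passed in KO against HET (limma, 0 of 1892, 0.0% called, smallest adjusted p = 0.113, with 220 genes at an unadjusted p under 0.05), so a difference between the pooled genotypes was not called for any gene. Nuclear genes of the respiratory chain were negative for 40 of 47 tested members (median -0.39), with 1 separated lower.

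Each pooled genotype on its own gave 0 called genes against WT (limma, 0.0% in each). HET against WT had 221 genes at an unadjusted p under 0.05 and a smallest adjusted p of 0.0739, and KO against WT had 140 genes and 0.388. The median over all genes was -0.01 in HET and -0.19 in KO, and both comparisons share the WT libraries. With all KO libraries left out 15.3% of genes were separated higher and 13.6% lower, and with both HET libraries left out 4.76% and 12.7%. Leaving libraries out can only add separated genes, so these shares cannot be compared directly with those over all 8 libraries. Among 12 tested neutrophil members 6 were separated higher in HET and 7 in KO. Of the 25 members in the table, 15 and 17 were above 0 in HET replicates 1 and 3, and 22 to 24 in the KO libraries. The untested members Ltf and Wfdc21 were at 0 in both HET libraries.

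**Figure D5:**
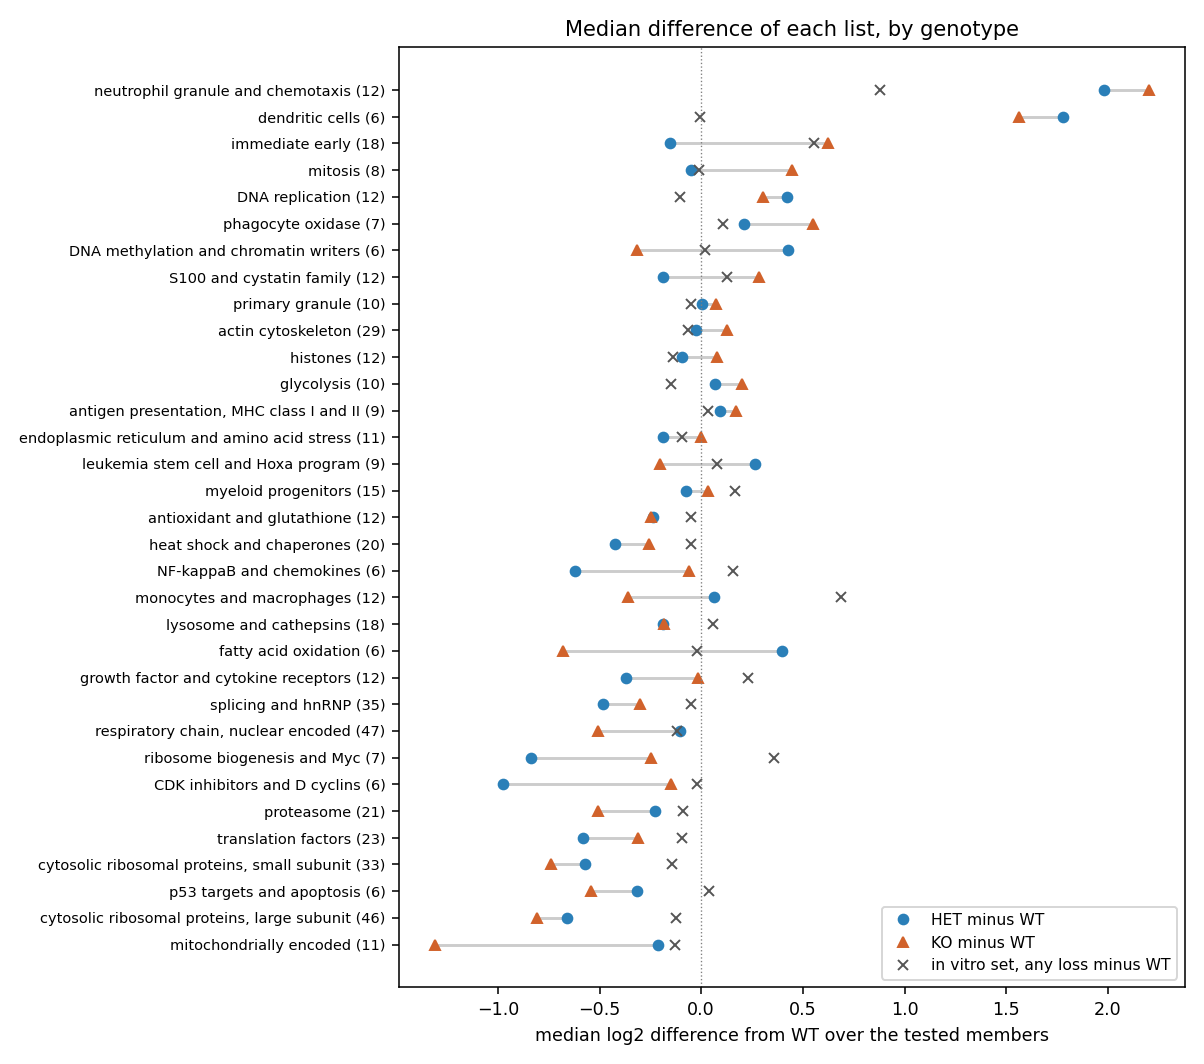
Points give, for each list with at least 6 tested members (number in brackets), the median difference from WT in log2(FPKM + 1) in HET (blue circles), in KO (orange triangles) and in the in vitro set for any loss (crosses). The 12 tested neutrophil genes have medians of 1.98 in HET and 2.20 in KO, and members listed at 0 in a library are not among them. Mitochondrially encoded genes stand at -0.21 in HET and -1.31 in KO.

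Immediate early genes, which cells switch on within minutes of a stimulus or of handling, were not separated in marrow. Of 18 tested members 14 were positive, and the median was 0.28 (-0.15 in HET, 0.62 in KO). The 0 separated members stand beside 1.96% higher and 3.86% lower over all tested genes. At these shares a count of 0 among 18 genes says little about them. Fos, a subunit of the AP-1 factor, was at 791, 1063 and 1302 FPKM in WT replicates 1 to 3, 1855 and 807 in HET replicates 1 and 3, and 2963, 4167 and 3656 in KO replicates 1 to 3, so that the KO libraries were above all others. Dusp1, a phosphatase that ends MAP kinase signals, was at 842, 1283 and 1303 FPKM in WT, 2241 and 1024 in HET and 2339, 3395 and 2419.6 in KO (difference 0.93, SE 0.37). Btg2 and Jund had differences of 1.16 (SE 0.44) and 1.03 (SE 0.45). In the in vitro set Fos and Dusp1 passed the threshold, at 1.94 (limma adjusted p = 0.00199) and 1.24 (adjusted p = 0.0237), among 42 called genes of 14777 (0.284%; 25 higher and 17 lower). The tables may have been scaled separately, and no test was made between them.

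Stem cell and leukemia genes gave few testable members. Of 25 stem cell names 12 were in the table and 3 were tested. Of these, 0 were separated, beside 1.96% higher and 3.86% lower over all tested genes. Egr1, an immediate early gene that keeps stem cells quiescent, was at 35.2, 1.13 and 188 FPKM in WT, 40.1 and 30 in HET and 141, 432 and 214 in KO (difference 2.18, SE 1.35). Lmo2, a stem cell transcription cofactor, was at 73.3 to 236 FPKM in WT and 59.2 to 177 in loss libraries (difference -0.43, SE 0.56). Hoxa9, a homeobox gene of progenitors and many leukemias, was at 5.15 to 13.6 FPKM in WT and 4.95 to 51.7 in loss libraries (difference 0.56, SE 0.88), with a 95% interval of -1.38 to 2.504. Without WT replicate 3 the differences of Egr1, Lmo2 and Hoxa9 were 3.66, -0.21 and 0.16. Of 27 names of the leukemia stem cell and Hoxa list 9 were tested, 0 were separated, and the median was -0.08. Its members Ctnnb1 (beta-catenin), Cd33 (a myeloid sialic acid receptor) and Mcl1 (a survival factor) had differences of 1.36 (SE 0.89), 1.08 (SE 0.82) and -1.102 (SE 0.75), and that of Ctnnb1 was 0.79 without WT replicate 3. Kit, the stem cell factor receptor, and Cd34 were listed at 0 in 2 of 8 libraries each, both HET, and were not tested: Kit was at 1.9, 0.00747 and 8.51 FPKM in WT and 0.0472, 19.4 and 1.6 in KO, and Cd34 at 21.9, 61.6 and 55.2 FPKM in WT and 0.0245, 45.2 and 46 in KO. These 2 were chosen after their values were seen. Spi1, the myeloid master factor PU.1, was the 1 separated member, on the higher side, of 15 tested myeloid progenitor genes. That count is near the 5.81% of all tested genes that were separated in either direction. Spi1 was at 296 to 324 FPKM in WT and 353 to 580.5 in loss libraries (difference 0.55, SE 0.30).

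Lipid genes, which bear on what Fabp4 does, were mostly listed at 0 in a library and not tested. Of 22 targets of PPARG and related receptors 3 were tested, of 27 fatty acid oxidation genes 6, of 18 fatty acid synthesis genes 1, and of 22 cholesterol synthesis genes 2. Of these, 0 were separated, beside 1.96% higher and 3.86% lower over all tested genes, and so few tested genes say little about these lists. Plin2, which coats lipid droplets, was at 74.6, 52.3 and 56.5 FPKM in WT replicates 1 to 3, 162 and 156 in HET replicates 1 and 3, and 117, 32.6 and 42.5 in KO replicates 1 to 3. The HET libraries and KO replicate 1 were above WT and the other KO libraries below, and the difference was 0.47 (SE 0.67). Ucp2, a mitochondrial carrier, was at 343 to 631 FPKM in WT and 223 to 404 in loss libraries (difference -0.68, SE 0.35). Etfa, an electron carrier of fatty acid oxidation, was the 1 positive member of its 6 (difference 1.73, SE 0.99), and the list's median was -0.32 (0.40 in HET and -0.68 in KO). Etfa was at 1.53, 16.9 and 11.6 FPKM in WT, 74.2 and 61.2 in HET and 17.6, 18.2 and 8.55 in KO. Its difference from WT was 3.04 in HET and 0.86 in KO, so the pooled value came mostly from the HET libraries.

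Cell division, chaperone and other lists had few separated members, to be read beside the 1.96% of all tested genes that were separated higher and 3.86% lower. Among 8 tested mitosis genes, Bub3, a spindle checkpoint protein, was separated higher, at 52.3 to 99.1 FPKM in WT and 108 to 144 in loss libraries (difference 0.86, SE 0.44), and Ube2c, the ubiquitin enzyme of mitotic exit, had a difference of 0.97 (SE 0.52). Cdkn2d, the CDK4 and CDK6 inhibitor p19, was separated lower, at 329 to 416 FPKM in WT and 103 to 236 in loss libraries (difference -1.26, SE 0.40). Among 20 chaperone genes, Dnaja1 was separated higher (difference 1.897, SE 0.59) and Hspe1, the mitochondrial chaperonin cofactor, lower (difference -1.503, SE 0.50). Dnajb9, a chaperone of the endoplasmic reticulum, was higher (difference 0.93, SE 0.36). Ifitm2, an interferon-induced membrane protein, was lower (difference -0.900, SE 0.32), as was the splicing protein Snrpe (difference -1.84, SE 0.58). Gpi1, the glycolytic glucose phosphate isomerase, was higher in marrow, at 153 to 228 FPKM in WT and 276 to 413 in loss libraries (difference 0.89, SE 0.33). Slpi, a secreted protease inhibitor, had a difference of -1.21 (SE 0.48) with overlapping groups. Its HET replicates 1 and 3 had 632 and 631 FPKM, while the lowest KO library had 1734 and the lowest WT library 2255. Its HET difference from WT was -2.20 (limma adjusted p = 0.0739), and its KO difference was -0.55. KO minus HET was 1.65 for Slpi (limma adjusted p = 0.113). No gene had a smaller adjusted p in HET against WT or in KO against HET.

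Markers of other cells varied in level between lists. No member of the T cell, NK cell, eosinophil, mast cell and basophil, endothelium, stroma and adipocyte, or bone cell lists was above 0 in all 8 libraries. The summed FPKM of the T cell list ran from 0 to 48.6, that of the stroma and adipocyte list from 0 to 81.1, and that of the erythroid list from 107 to 253.5, with 1 tested erythroid member. The B cell list ran from 130 to 317, with 1 of its members tested, and the megakaryocyte and platelet list from 204 to 605, with 1 tested, and neither tested gene was separated. The NK cell list ran from 55.2 to 696.1 in WT and 0 to 527 in loss libraries, most of it Nkg7, which was chosen after its values were seen. The myeloid progenitor list ran from 6299 to 11680 in WT and 8683 to 10670 in loss libraries. Whether the sorted cells differed in their makeup between the groups was not tested.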

How the data were processed

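Bulk RNA was sequenced from sorted mouse bone marrow (RNA extracted with TRIzol, VAHTS Universal kit, per the labels' protocols). The authors deposited FPKM per gene, per the file headers; per the submitters' processing notes the build was mm10. The sources used here give no aligner, counting tool or strand setting. Without strand, overlapping and antisense genes cannot be told apart. FPKM holds no counts; depth was estimated from steps of low values (73.5 to 86.8% within 0.1 of whole steps) and entered no test. The 5 loss and 3 WT libraries were compared by limma (version 3.58.1, R 4.3.3) after log2(FPKM + 1), with trend and robust moderation, Benjamini-Hochberg over 1892 genes and a threshold of 0.05; genotype means gave HET, KO and KO against HET. This scale understates changes of low genes. The method was also run on simulated data with independent normal noise. That simulation held no deviant library and no unequal depth, so it does not show how the method behaves on these libraries.

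Members and lists (53 lists, 1129 names, 957 in the table, 499 tested) were chosen with earlier results of these data known. Named genes were the Fabp genes, the 8 separated genes of smallest p in each direction with mean FPKM of at least 2 in either group, and up to 4 members of smallest p from each list with at least 3 tested members. Gene positions were matched by gene ID to RefSeq (GRCm38.p6). The closing section gives the alternatives: pseudocount, filters, scalings, weights, block and libraries left out.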

Additional observations from a re-analysis of the deposited data

Results flagged for a closer look

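Over 78 genes named in the text, the 5 loss libraries were checked for a library set apart on the log2 scale; chance flags about 1 in 20 such groups. Ctnnb1 was at 131 FPKM in HET replicate 1, far above the other loss libraries. Ube2c was at 69.0 FPKM in KO replicate 1, far below the other loss libraries. Tcf4 was at 0.114 FPKM in KO replicate 1, also far below the other loss libraries. Gpi1 was separated in opposite directions in the 2 sets, with a difference of 0.89 in marrow and -0.17 in the in vitro set; the difference between the sets was not tested.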

How the results depend on the processing

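Loss against WT gave 0 called genes under every alternative except those without WT replicate 3: leaving out a library gave 0 to 5 calls, and WT replicate 3 left out with quantile normalization, an alternative added after seeing the data, gave 5. The same-numbered WT and KO libraries had correlations of their deviations of 0.0753, -0.0117 and 0.0704, so the numbers were not taken to pair samples; the replicate block gave 0 calls in marrow and moved the in vitro count from 42 to 12. KO against HET gave 0 to 34 calls with a library left out (34 without HET replicate 3, 6 without HET replicate 1), and HET against WT 0 to 55 (55 without HET replicate 3, 6 without HET replicate 1), where the lone HET library is assumed to vary like the others, and 1 with median-ratio scaling. KO against WT gave 0 to 6, the 6 without WT replicate 3. The in vitro count was 91 with a pseudocount of 0.1, 24 with median-ratio scaling, 27 as TPM, and 8 to 275 with a library left out (275 without KO replicate 2). Signs turned for Lyz2 (-0.68 with quantile normalization and -0.46 with WT replicate 3 also left out), Lmo2 (0.0037 with KO only, under both filters) and Plin2 (-0.093 with array weights and -0.14 with KO only, under both filters). The other named genes, 75 of 78, had the main sign under all 24 alternatives that tested them. List medians moved by less than 1 SD of the loss libraries in 921 of 960 cases. For these reversals the cause was not tested. Depth limits the HET libraries most, at 3.95 and 11.6 M fragments.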
